A study of Mus musculus with 16 samples.

Results

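The effect of the culture dish on resting GM-CSF macrophages was described from 4 of the 16 libraries of the series, 2 of GM-noTC and 2 of GM-TC cells, across the 12514 genes that passed the expression filter out of 22287 in the table. Both groups were bone marrow derived macrophages (BMDMs) of C57BL/6J mice, 8 weeks old by the labels, cultured for 7 days with GM-CSF at 20 ng/ml and left without LPS. They differed in the dish, polystyrene treated for tissue culture (TC) in GM-TC and untreated polystyrene (noTC) in GM-noTC. The other 12 libraries were GM-TC-LPS and GM-noTC-LPS cells, treated with LPS for 3 h, and M-TC, M-noTC, M-TC-LPS and M-noTC-LPS cells, grown with M-CSF at 50 ng/ml. They entered the same fit, and are described only beside the 4 libraries. Each group had 2 replicates. Whether 2 libraries that carry the same replicate number stem from 1 mouse is not given in the sources used here, so p-values measure the spread between these libraries. In such bulk RNA, fewer cells of a type and less RNA per cell cannot be told apart.

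Bone marrow progenitors exposed to GM-CSF give rise to a mixed culture of macrophages and cells with dendritic features, which differ in how firmly they hold to the plastic. Treated polystyrene is hydrophilic, binds adhesive serum proteins and lets integrins engage, whereas untreated polystyrene is hydrophobic and holds cells loosely. Adhesion and cell spreading are both known to shape macrophage gene expression.

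The libraries held 17527802 and 22400457 counts in GM-TC and 21785799 and 24040524 counts in GM-noTC, and 3 counts corresponded to 0.151 and 0.121 CPM in GM-TC and 0.122 and 0.111 CPM in GM-noTC. Levels are given as CPM, the counts of a gene scaled to a common library size after TMM normalisation, for replicate 1 and then replicate 2 of a group. The defining macrophage genes were abundant in all 4 libraries. Lyz2, which encodes lysozyme, had 33795 and 37179.5 CPM in GM-TC and 35054 and 34839 CPM in GM-noTC, with overlapping groups. Csf1r, the M-CSF receptor gene, had 872 and 812 CPM and 819 and 837 CPM, and its groups overlapped as well. Neither Csf2ra nor Csf2rb, which encode the GM-CSF receptor chains, passed the test (adjusted p = 0.73 and 0.080 from edgeR). Of 24 macrophage defining genes, 6 were higher and 2 were lower in GM-noTC, the higher ones including Adgre1, the gene of F4/80, at 214 and 228 CPM in GM-TC and 280.0 and 267 CPM in GM-noTC (log2 fold change 0.30, adjusted p = 0.00024 from edgeR). Without GM-noTC replicate 2 the counts were 3 and 1, and without GM-TC replicate 1 they were 6 and 5. The median log2 fold change also moved with transcript length, from -0.074 in the shortest eighth of genes to 0.086 in the longest, and its part in the results was not tested beyond the length correction reported with the alternatives.

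Comparing with GM-TC cells, 587 of 12514 genes were higher in GM-noTC cells at an adjusted p under 0.05 (4.69%) and 357 were lower (2.85%), with p-values from edgeR's quasi-likelihood test and Benjamini-Hochberg adjustment over all genes tested. For 43 of the 587 genes the excess in GM-noTC was less than 1% of their mean level in the 8 LPS libraries, and these are kept apart because reads of other libraries could give an excess of that size. This left 544 higher genes (4.35%), and in either direction 944 genes were called (7.54%) with the 43 included. Most differences were small, since 354 of the 544 higher and 267 of the 357 lower genes changed by less than 1.5-fold, with a median absolute log2 fold change of 0.42 and 0.32. A fold change above 2 was held by 85 of the higher genes (0.679%) and 56 of the lower genes (0.447%), and 29 of those 56 were genes of heart and skeletal muscle. The groups did not overlap for any called gene, against 45.2% of all genes tested. The counts depended on single libraries. Without GM-TC replicate 1 they were 1148 higher and 800 lower genes, without GM-noTC replicate 1 they were 259 and 123, and without GM-noTC replicate 2 they were 286 and 151.

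**Figure D1:**
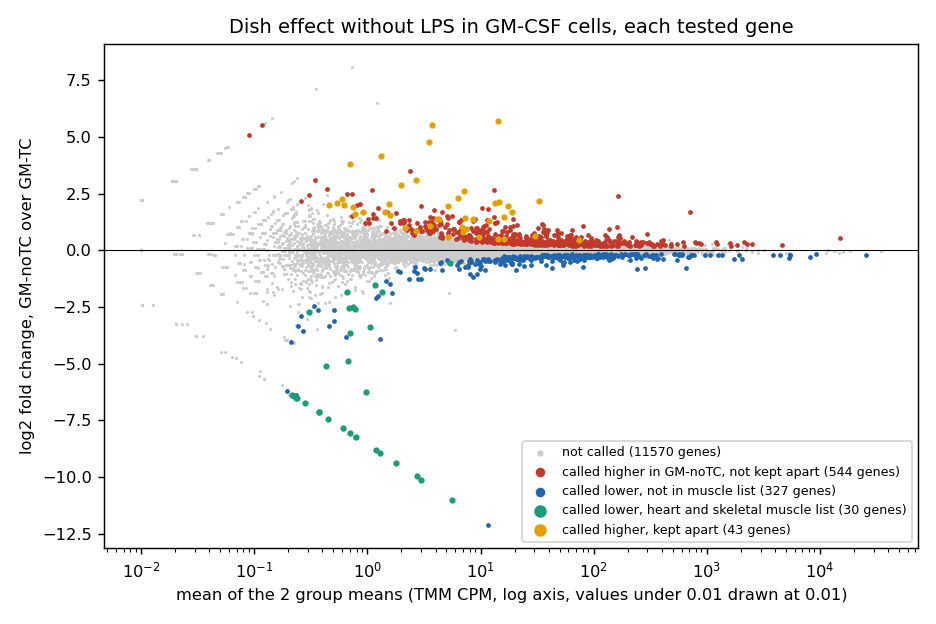
Each point is a tested gene, with the mean of the GM-TC and GM-noTC means in TMM CPM on a log horizontal axis and the log2 fold change of GM-noTC over GM-TC on the vertical axis. The 544 higher genes and the 327 lower genes outside the muscle list lie mostly close to 0, the 30 muscle genes reach far below it, and the 43 genes kept apart lie above it.

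The 43 genes kept apart included 13 members of the list of cytokines and chemokines, 13 of the interferon stimulated genes and 6 of the NF-kB feedback genes. Cxcl10, a chemokine induced by interferon, had 0.353 and 0.685 CPM in GM-TC and 29.3 and 26.9 CPM in GM-noTC against a mean of 3947 CPM in GM-noTC-LPS. Nos2, which encodes the inducible nitric oxide synthase, had 0.454 and 0.644 CPM in GM-TC and 4.53 and 5.10 CPM in GM-noTC against 391 CPM in GM-noTC-LPS. Cxcl9, another interferon induced chemokine, had 0 and 0.161 CPM and 1.55 and 1.11 CPM, with a mean of 67.9 CPM in GM-noTC-LPS. In each of the 3 genes both GM-noTC libraries lay above both GM-TC libraries, and the levels in GM-noTC were a small share of those under LPS. The 1% limit refers to a different mean, taken over all LPS libraries in library-size CPM. For Cxcl10, Nos2 and Cxcl9 this mean was 5789, 661 and 231 CPM, and the excess was 0.536%, 0.727% and 0.609% of it. Of the GM-noTC-LPS mean alone the excess was 0.993%, 1.55% and 2.62%, so for Nos2 and Cxcl9 it passed 1% there. Across the 43 genes the excess had a median of 0.576% of the LPS mean, with a range of 0.312% to 0.940%, which the rule itself holds under 1%. Just inside the 1% limit lay Cxcl3 and Fnbp1l, and just outside it Il1a, Ccl4 and Calcrl, so there was no clear gap at the limit itself. Most shares were nevertheless similar, since 39 of the 43 differed from the median by no more than 1.5-fold. Among the higher genes not kept apart, 170 had an LPS mean of at least 100 CPM. Their median share was 10.1%, and 14 of them were under 2%. When 1% of the LPS mean was subtracted from the noTC libraries, 503 of the 544 higher genes and 333 of the 357 lower genes were still called. The subtraction only takes counts from the noTC libraries, which moves lower genes further down, so it is not a check of the lower genes.

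**Figure D2:**
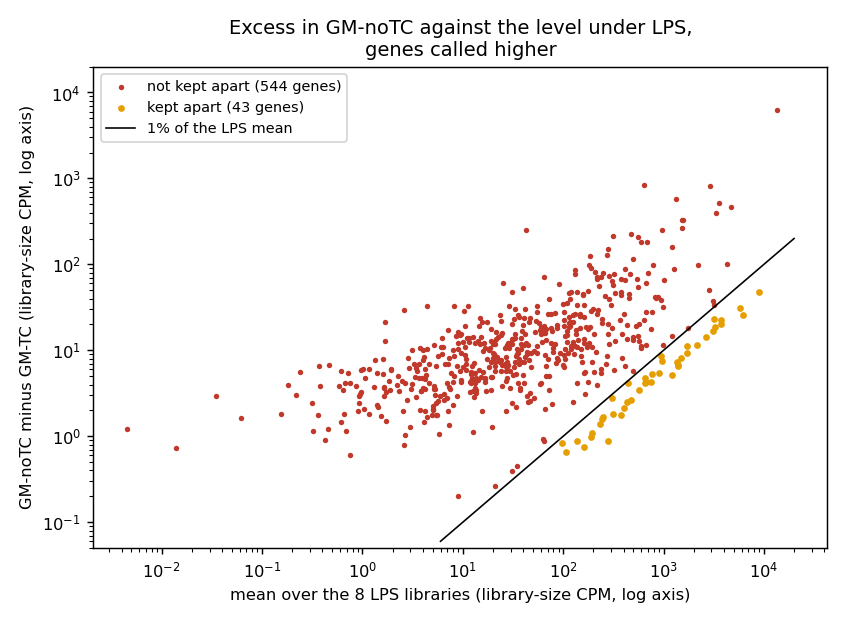
Each point is a gene called higher in GM-noTC, with its mean over the 8 LPS libraries on the horizontal axis and the difference between the GM-noTC and GM-TC means on the vertical axis, both in library-size CPM on log axes. By the rule the 43 genes kept apart, between 0.312% and 0.940% of the LPS mean, lie under the line of 1% and the other 544 genes above it.

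With the genes kept apart left out, glycolysis and the hypoxia response had the most genes called higher of the 39 lists, with 22 of 38 tested genes higher in GM-noTC and 0 lower. Its median log2 fold change was 0.29, against 0 over all genes tested. When a library was left out, between 17 and 23 members were higher, and 12 were higher in a fit to the 4 libraries alone. Hypoxia inducible factor (HIF) is a transcription factor that is stable at low oxygen and drives glycolytic enzymes, glucose uptake and its own inhibitors. It binds a core of ACGTG or GCGTG. The 250 bases before the RefSeq start (GRCm38.p6, read 5′ to 3′ on the minus strand for each) are shown for the 4 higher members with the largest fold change, since these genes moved together, with ACGTG or GCGTG on either strand in capitals, which includes the overlap of both in CACGTG.
Egln3, chr12:54203875-54204124: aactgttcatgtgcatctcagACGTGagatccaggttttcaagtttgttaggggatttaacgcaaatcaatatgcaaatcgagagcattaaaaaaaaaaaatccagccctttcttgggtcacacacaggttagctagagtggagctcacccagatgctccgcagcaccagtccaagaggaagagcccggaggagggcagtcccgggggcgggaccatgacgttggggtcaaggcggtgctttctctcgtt
Ankrd37, chr8:45999851-46000100: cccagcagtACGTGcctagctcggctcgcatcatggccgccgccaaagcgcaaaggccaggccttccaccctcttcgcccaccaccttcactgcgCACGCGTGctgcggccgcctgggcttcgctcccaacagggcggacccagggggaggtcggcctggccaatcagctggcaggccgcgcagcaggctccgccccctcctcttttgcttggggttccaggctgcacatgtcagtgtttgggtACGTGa
Bnip3, chr7:138909507-138909756: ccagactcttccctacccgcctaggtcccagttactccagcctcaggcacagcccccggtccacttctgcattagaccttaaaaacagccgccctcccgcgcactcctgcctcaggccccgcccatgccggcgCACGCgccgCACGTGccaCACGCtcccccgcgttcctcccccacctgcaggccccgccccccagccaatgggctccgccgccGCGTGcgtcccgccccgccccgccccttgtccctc
Vegfa, chr17:46032378-46032627: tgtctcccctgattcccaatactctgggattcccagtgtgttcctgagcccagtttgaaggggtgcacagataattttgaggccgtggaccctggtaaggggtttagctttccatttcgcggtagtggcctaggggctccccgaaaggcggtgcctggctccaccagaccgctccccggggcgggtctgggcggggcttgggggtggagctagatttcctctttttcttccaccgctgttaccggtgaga
The letters occurred 1 time before Egln3, 4 times before Ankrd37, 5 times before Bnip3 and 0 times before Vegfa within these windows. Among the 22 higher members 21 had an entry in RefSeq and 16 of those held the letters. Over all 27025 genes with an entry 38.6% held them in the same window. That share includes genes outside the 12514 tested here, and the share among the tested genes was not computed. The counts of the list are therefore not read as an excess over the background. Of all 38 tested members, called or not, 35 had an entry and 25 of those held the letters. The letters were thus frequent over the whole list and not only among its higher members. A match is a description of the letters and not of binding.

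Egln3 (ENSMUSG00000035105), a prolyl hydroxylase that marks HIF for degradation and is itself a HIF target, had 3.74 and 3.54 CPM in GM-TC and 20.8 and 24.6 CPM in GM-noTC. Both GM-noTC libraries were far above both GM-TC libraries, a log2 fold change of 2.64 (SE 0.19, adjusted p = 6.3e-09 from edgeR). Ankrd37, an ankyrin repeat protein gene known for its induction by hypoxia, had 1.16 and 1.29 CPM and 4.36 and 5.10 CPM, a log2 fold change of 1.94 (SE 0.28, adjusted p = 7.6e-05 from edgeR). Bnip3, whose product tags mitochondria for removal, rose from 11.7 and 13.5 CPM to 23.8 and 28.4 CPM (log2 fold change 1.05, adjusted p = 9.8e-07 from edgeR). Vegfa, the growth factor of blood vessels, had 37.2 and 34.6 CPM in GM-TC and 58.8 and 63.8 CPM in GM-noTC (log2 fold change 0.77, adjusted p = 8.0e-06 from edgeR). None of these 4 genes overlapped between groups, and each stayed called in the 13 alternative fits. The difference from M-CSF cells was itself called for 3 of them, where the log2 fold change of M-noTC over M-TC was 0.60 for Egln3, 0.17 for Bnip3 and -0.01 for Vegfa (adjusted p of the interaction = 0.00022, 0.00055 and 0.00022 from edgeR). Over the whole list, 18 members were higher and 3 lower in M-noTC than in M-TC, with a median of 0.28. Over all genes 16.1% were higher there and 11.1% lower. The difference between growth factors was called higher for GM-CSF cells in 7 members and lower in 5, against 4.82% and 6.4% of all genes. In cells treated with LPS, 17 members of the list were higher on noTC and 0 were lower, against 2.08% and 0.727% of all genes.

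Arg1 (ENSMUSG00000019987) stood out among genes of alternative activation. It encodes arginase, which takes arginine away from nitric oxide synthesis, and its level was 54.1 and 51.9 CPM in GM-TC and 275 and 275 CPM in GM-noTC. The replicates of each group were close and the groups lay far apart, with a log2 fold change of 2.38 (SE 0.14, adjusted p = 2.6e-10 from edgeR). Under LPS the log2 fold change of Arg1 between dishes was 2.68 (adjusted p = 5.7e-10 from edgeR), and the difference between the 2 states was not called (adjusted p = 0.73). Flt1, a receptor for VEGF, rose from 11.9 and 9.95 CPM to 27.7 and 28.3 CPM (log2 fold change 1.37, adjusted p = 1.7e-07 from edgeR). Mgl2, a lectin of alternatively activated macrophages, had 67.4 and 70.6 CPM in GM-TC and 113 and 110.2 CPM in GM-noTC (log2 fold change 0.69, adjusted p = 2.4e-06 from edgeR). Chil3 went the other way. This gene of the chitinase-like protein Ym1 had 769 and 872 CPM in GM-TC and 502 and 460.4 CPM in GM-noTC, so it was lower on noTC (log2 fold change -0.77, adjusted p = 1.1e-06 from edgeR). Over the 28 tested genes of the alternative activation list 6 were higher and 2 were lower, with a median of 0.14, so the list did not move in 1 direction. The higher count was 3 without GM-noTC replicate 1.

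Genes that GM-CSF induces in alveolar type macrophages were split as well, with 3 of 26 higher and 4 lower. Ear6, which encodes a secreted ribonuclease, had 52.2 and 55.7 CPM in GM-TC and 30.4 and 32.9 CPM in GM-noTC (log2 fold change -0.77, adjusted p = 6.4e-07 from edgeR). Olr1, a receptor for oxidized lipoprotein, rose from 35.4 and 36.8 CPM to 59.2 and 58.6 CPM (log2 fold change 0.70, adjusted p = 2.9e-07 from edgeR). Cd36, a receptor for fatty acids and oxidized lipids, had 792 and 826 CPM and 972 and 957 CPM (log2 fold change 0.25, adjusted p = 0.0027 from edgeR), and it was not called without GM-noTC replicate 1. In Chil3 and Ear6 both GM-noTC libraries were below both GM-TC libraries, and in Olr1 and Cd36 both were above. Without GM-noTC replicate 1 the list had 1 higher and 2 lower members, without GM-noTC replicate 2 it had 2 and 2, and without GM-TC replicate 2 it had 5 and 3.

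**Figure D3:**
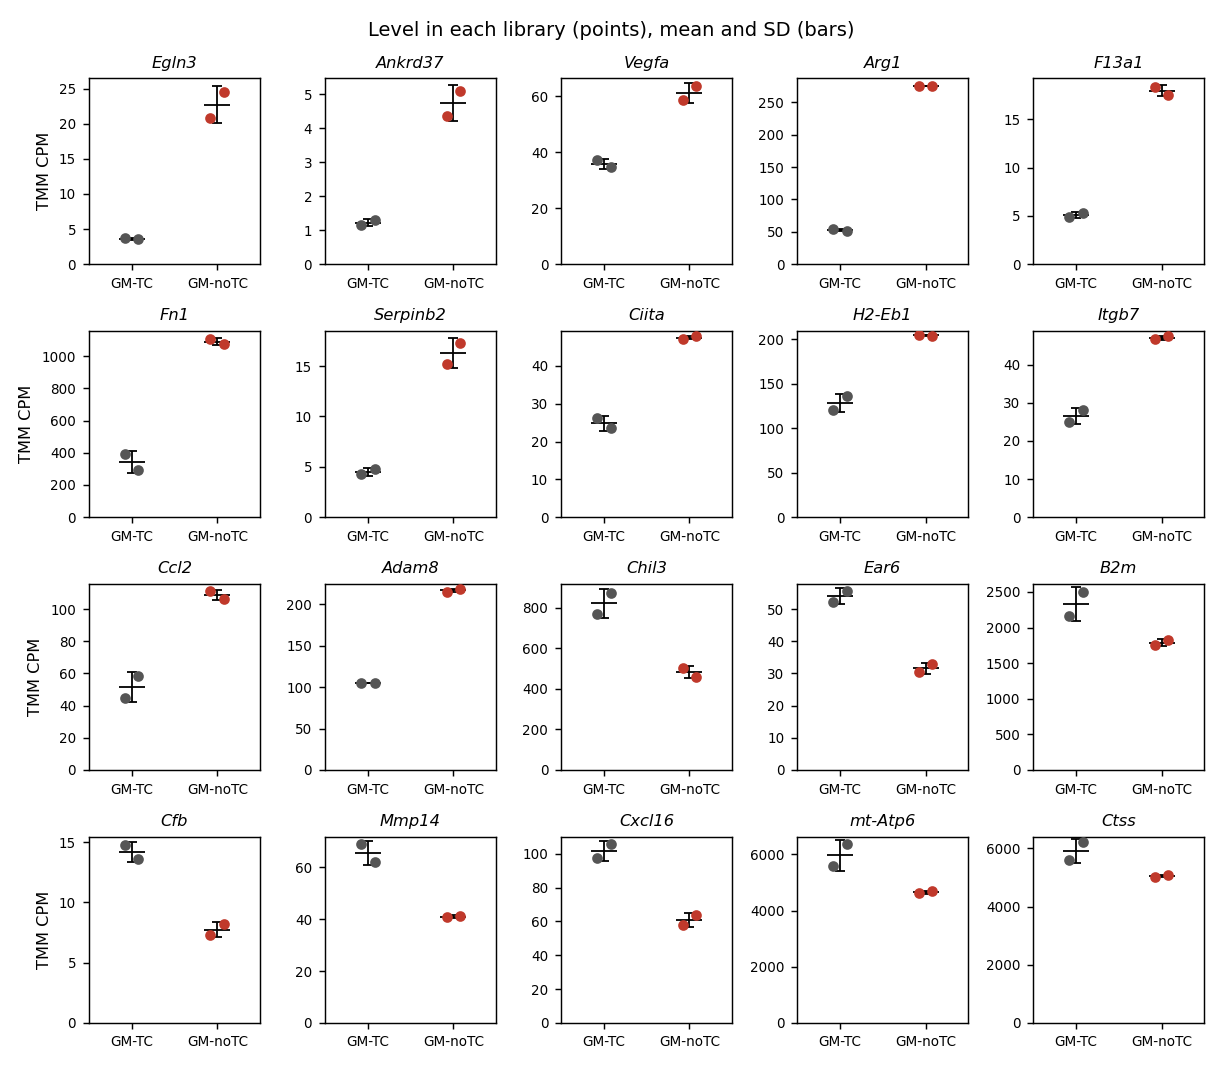
Each panel shows a gene, with TMM CPM on a linear vertical axis from 0 and the GM-TC and GM-noTC libraries as points, the mean as a dash and the SD of the 2 libraries as a bar. The 12 genes from Egln3 to Adam8 are higher and the 8 genes from Chil3 to Ctss lower in GM-noTC, and the points of the 2 groups do not overlap in any panel.

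Matrix, coagulation and monocyte genes included several of the largest increases. Fn1 (ENSMUSG00000026193), which encodes fibronectin, an integrin ligand of the matrix, had 391 and 293 CPM in GM-TC and 1106 and 1075 CPM in GM-noTC. Both GM-noTC libraries lay far above either GM-TC library (log2 fold change 1.67, adjusted p = 2.0e-10 from edgeR). Thbs1, the gene of the matricellular protein thrombospondin 1, rose from 103 and 94.7 CPM to 156 and 155 CPM (log2 fold change 0.65, adjusted p = 4.6e-07 from edgeR). Vcan, whose product versican is a proteoglycan of monocytes, had 25.4 and 19.1 CPM and 38.9 and 36.6 CPM (log2 fold change 0.77, adjusted p = 3.2e-05 from edgeR). Of the 35 tested matrix genes 7 were higher and 3 were lower, with a median of 0.03, and Hspg2, the gene of the basement membrane proteoglycan perlecan, was among the lower ones at 1.82 and 0.604 CPM in GM-TC and 0.0815 and 0.0739 CPM in GM-noTC. Hspg2 was not called without either GM-noTC library, and without either of these libraries 0 matrix genes were lower.

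F13a1 (ENSMUSG00000039109), which encodes the coagulation factor XIII A chain that crosslinks fibrin and fibronectin, had 4.898 and 5.36 CPM in GM-TC and 18.4 and 17.6 CPM in GM-noTC. The groups were well apart, with a log2 fold change of 1.803 (SE 0.15, adjusted p = 5.5e-08 from edgeR). In M-CSF cells F13a1 moved the other way, from 3.24 ± 0.0374 CPM (SD, n = 2) in M-TC to 1.46 ± 0.438 CPM (SD, n = 2) in M-noTC, and the difference between the growth factors was called (adjusted p = 1.8e-07 from edgeR). Serpinb2, an inhibitor of plasminogen activators, had 4.24 and 4.79 CPM in GM-TC and 15.2 and 17.3 CPM in GM-noTC (log2 fold change 1.84, adjusted p = 2.1e-08 from edgeR). F3, the gene of tissue factor, which starts coagulation, rose from 2.37 and 1.77 CPM to 4.93 and 4.88 CPM (log2 fold change 1.26, adjusted p = 7.5e-05 from edgeR). Cfb, complement factor B, was lower, at 14.8 and 13.6 CPM in GM-TC and 7.297 and 8.17 CPM in GM-noTC (log2 fold change -0.87, adjusted p = 8.1e-05 from edgeR). The 33 tested genes of complement and coagulation had 9 higher and 2 lower members, and a median of 0.09. Among 22 monocyte genes 6 were higher, 1 was lower and 1 was kept apart, with a median of 0.34, or 0.29 without genes kept apart.

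Matrix proteases changed in both directions, with 5 of 29 genes higher and 5 lower. Adam8, a membrane metalloprotease, was at 105 and 105 CPM in GM-TC and 216 and 218 CPM in GM-noTC (log2 fold change 1.04, SE 0.056, adjusted p = 2.9e-11 from edgeR). Mmp13, a collagenase, rose from 90.9 and 95.8 CPM to 178 and 182 CPM (log2 fold change 0.94, adjusted p = 5.3e-10 from edgeR). Mmp14, a membrane metalloprotease that activates other proteases and lets cells invade collagen, fell from 68.9 and 62.1 CPM to 40.8 and 41.3 CPM (log2 fold change -0.67, adjusted p = 5.7e-06 from edgeR). Each of the 3 was called in the 13 alternative fits. Adam8 also rose on noTC in M-CSF cells and under LPS, by 1.07 and 0.97 in log2 units (edgeR, adjusted p = 3.6e-12 and 5.7e-10).

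Genes of adhesion were higher where they were called. Of 43 tested integrin and focal adhesion genes 9 were higher and 0 were lower, with a median of 0.10. Itgam (ENSMUSG00000030786), the integrin αM of the complement receptor CD11b, had 1972 and 1775 CPM in GM-TC and 2393 and 2351 CPM in GM-noTC (log2 fold change 0.34, adjusted p = 5.1e-05 from edgeR). Itgb7, an integrin chain that pairs with α4 or αE, rose from 25.04 and 28.03 CPM to 46.7 and 47.5 CPM (log2 fold change 0.82, adjusted p = 2.7e-07 from edgeR), and Itgae, its partner αE that binds E-cadherin, from 1.97 and 3.54 CPM to 7.38 and 7.76 CPM (log2 fold change 1.43, adjusted p = 0.00023 from edgeR). Tln1 encodes talin, which links integrins to actin, and it had 613 and 473 CPM in GM-TC and 711 and 698 CPM in GM-noTC. Its 2 GM-TC libraries were further apart than its GM-noTC libraries, and its call (adjusted p = 0.0021 from edgeR) was lost in the fits to the 4 libraries alone. The count of higher adhesion genes was 16 without GM-TC replicate 1, and 5 without GM-TC replicate 2 or without GM-noTC replicate 1.

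The actin list had 10 of 52 genes higher and 0 lower, with a median of 0.06. Actb and Actg1, the cytoplasmic actins, had 1991 and 2133 CPM and 2185 and 2376 CPM in GM-TC and 2501 and 2429 CPM and 2758 and 2689 CPM in GM-noTC. All GM-noTC values lay above the GM-TC values, by 0.26 and 0.26 in log2 units (edgeR, adjusted p = 0.00077 and 0.00087). Coro1a, which binds actin in leukocytes, rose from 74.9 and 81.7 CPM to 112 and 114 CPM (log2 fold change 0.53, adjusted p = 1.3e-06 from edgeR), and Gsn, the actin severing protein gelsolin, from 201 and 206 CPM to 273 and 272 CPM (log2 fold change 0.42, adjusted p = 2.5e-06 from edgeR). Without GM-TC replicate 2, 15 actin genes were higher and 0 lower, and without GM-TC replicate 1, 12 were higher and 3 lower. Targets of YAP and SRF, factors that respond to spreading and actin tension, were split, with 5 of 27 higher and 3 lower. Egr1, an immediate early transcription factor that SRF controls, rose from 1.77 and 1.73 CPM to 5.54 and 6.58 CPM (log2 fold change 1.79, adjusted p = 3.4e-06 from edgeR). Ankrd1, a YAP target that heart muscle also expresses, had 0.656 and 2.42 CPM in GM-TC and 0 in both GM-noTC libraries, at least 13.2-fold lower against a floor of 3 counts per library.

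Genes of antigen presentation by class II were called mostly higher and those by class I lower, and the difference between the classes was not tested. Ciita (ENSMUSG00000022504), the transactivator that switches on MHC class II genes, had 26.3 and 23.5 CPM in GM-TC and 47.2 and 47.8 CPM in GM-noTC, and the groups were far apart (log2 fold change 0.94, SE 0.087, adjusted p = 1.9e-07 from edgeR). H2-Eb1, a class II β chain, rose from 121 and 136 CPM to 204 and 204 CPM (log2 fold change 0.67, adjusted p = 1.2e-06 from edgeR), and H2-DMb2, a chain of the class II peptide loader, from 12.3 and 14.1 CPM to 28.98 and 27.9 CPM (log2 fold change 1.10, adjusted p = 1.3e-06 from edgeR). In all, 6 of 15 class II genes were higher and 1 was lower, with a median of 0.21. In M-CSF cells 0 class II genes were higher on noTC and 4 were lower, where 16.1% and 11.1% of all genes were. The difference between growth factors was called for 5 members, all higher for GM-CSF cells, where 4.82% of all genes were. Ciita was among them, with a log2 fold change of -0.86 in M-CSF cells (adjusted p of the interaction = 2.1e-08 from edgeR).

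Class I presentation was lower where it was called. Of 25 tested class I genes 0 were higher and 7 were lower, with a median of -0.11. B2m (ENSMUSG00000060802), the light chain of every class I molecule, had 2168 and 2500.0 CPM in GM-TC and 1751 and 1829.7 CPM in GM-noTC. Both GM-noTC libraries were below both GM-TC libraries (log2 fold change -0.38, adjusted p = 0.00022 from edgeR). H2-Q4, a nonclassical class I gene, fell from 30.5 and 31.7 CPM to 23.6 and 24.3 CPM (log2 fold change -0.38, adjusted p = 0.00051 from edgeR), and H2-Q6 and H2-Q7, which are similar in sequence so that reads could be split between them, had log2 fold changes of -0.53 and -0.79 (edgeR, adjusted p = 0.0075 and 0.012). H2-Q6 was not called without GM-noTC replicate 1 or GM-TC replicate 2, nor H2-Q7 without GM-noTC replicate 2 or GM-TC replicate 1. In M-CSF cells 4 of the 25 class I genes were higher on noTC and 0 were lower. Over all genes 16.1% were higher there and 11.1% lower, so the higher count lay near that share. The difference between growth factors was called, in the lower direction for GM-CSF cells, in 9 members, against 6.4% of all genes.

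Of 30 dendritic cell genes 8 were higher, 1 was lower and 1 was kept apart, with a median of 0.17, or 0.20 without genes kept apart. Dpp4, the peptidase CD26 of some dendritic cells, rose from 4.95 and 4.95 CPM to 12.6 and 13.2 CPM (log2 fold change 1.38, adjusted p = 1.4e-05 from edgeR). Kmo, an enzyme of tryptophan breakdown, had 6.11 and 6.48 CPM and 11.7 and 13.2 CPM (log2 fold change 0.98, adjusted p = 0.00051 from edgeR). Jaml, a junctional adhesion molecule, was at 12.2 and 13.2 CPM in GM-TC and 23.6 and 24.2 CPM in GM-noTC (log2 fold change 0.90, adjusted p = 7.5e-05 from edgeR). The 3 genes did not overlap between groups and passed in the 13 alternative fits. Whether more dendritic cells or more of this RNA per cell lay behind the values was not tested.

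With the 13 genes kept apart left out, the cytokine and chemokine list had 11 of 71 members higher and 6 lower. Its median was 0.27 with those genes and 0.04 without them. Ccl2 (ENSMUSG00000035385), a chemokine that draws monocytes, had 44.8 and 58.1 CPM in GM-TC and 111 and 107 CPM in GM-noTC (log2 fold change 1.07, SE 0.084, adjusted p = 1.8e-08 from edgeR). Ccl7, a chemokine with the same receptor, rose from 6.31 and 7.61 CPM to 18.1 and 21.03 CPM (log2 fold change 1.48, adjusted p = 1.5e-07 from edgeR). Cx3cl1, the membrane chemokine fractalkine, rose from 1.67 and 1.65 CPM to 4.12 and 3.58 CPM (log2 fold change 1.21, adjusted p = 0.00070 from edgeR). These 3 genes were still called after 1% of the LPS mean was subtracted. Cxcl16, a chemokine that is also a scavenger receptor, fell from 97.3 and 106 CPM to 57.6 and 63.5 CPM (log2 fold change -0.74, adjusted p = 5.7e-08 from edgeR). Il1a, whose product interleukin 1α is an early inflammatory cytokine, had 58.4 and 65.6 CPM and 90.3 and 92.9 CPM (adjusted p = 0.00011 from edgeR), but it was not called after the subtraction (adjusted p = 0.80). Its excess lay just outside the 1% limit, so the subtraction takes away nearly all of it by construction. The lost call therefore does not tell where its reads came from. The lower count was 11 without GM-TC replicate 1 and 2 without any of the other 3 libraries.

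Of 57 cytokine and chemokine receptor genes 11 were higher and 2 were lower, and the higher count was 4 without GM-noTC replicate 1, 6 without GM-noTC replicate 2 and 7 without GM-TC replicate 2. Il2ra, the interleukin 2 receptor α chain, rose from 22.8 and 20.9 CPM to 41.3 and 45.3 CPM (log2 fold change 0.99, adjusted p = 1.5e-07 from edgeR), and Il1r2, a decoy receptor for interleukin 1, from 3.33 and 2.98 CPM to 6.97 and 7.096 CPM (log2 fold change 1.16, adjusted p = 0.0021 from edgeR). Ackr3, an atypical receptor that removes CXCL12, had 0.252 and 0.403 CPM and 1.305 and 1.48 CPM (log2 fold change 2.04, adjusted p = 0.026 from edgeR), and its call was lost without each of the 4 libraries. Among interferon stimulated genes 2 of 53 were higher, 1 was lower and 13 were kept apart. The 2 higher ones, Isg20 and Dhx58, were not called after the subtraction. Among NF-kB feedback genes 6 of 39 were higher, 4 were lower and 6 were kept apart, and the higher count was 3 without GM-noTC replicate 1 and 2 without GM-noTC replicate 2. Tnfaip3, the inhibitor A20, had 26.9 and 22.6 CPM in GM-TC and 36.0 and 39.6 CPM in GM-noTC (log2 fold change 0.62, adjusted p = 3.2e-06 from edgeR) and was not called after the subtraction (adjusted p = 0.30). Gadd45b, an early stress gene, fell from 8.94 and 10.1 CPM to 6.69 and 5.51 CPM (log2 fold change -0.66, adjusted p = 0.00033 from edgeR), and Saa3, an acute phase protein gene, from 9.74 and 12.2 CPM to 4.57 and 6.02 CPM (log2 fold change -1.06, adjusted p = 0.00049 from edgeR). After the subtraction the NF-kB list had 2 higher and 12 lower members and the interferon list 0 and 23. The subtraction takes counts from the noTC libraries alone, most from genes high under LPS, so it moves such lists lower by construction. Their direction is therefore not read from it.

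Receptors of phagocytes were higher more often than lower, with 13 and 3 of 41 scavenger, lectin and Fc receptor genes, and a median of 0.16 against 0.10 without a gene kept apart. Without GM-noTC replicate 1 the counts were 7 and 1, and without GM-TC replicate 1 they were 13 and 6. Trem1, a receptor that amplifies inflammatory signals, rose from 4.75 and 4.31 CPM to 8.89 and 9.57 CPM (log2 fold change 1.03, adjusted p = 2.7e-05 from edgeR). Of 27 genes of C1q, efferocytosis and tissue macrophages 4 were higher and 3 were lower, or 2 and 1 without GM-noTC replicate 1. Tmem119, known as a microglia gene, had 2.22 and 2.13 CPM in GM-TC and 6.69 and 7.35 CPM in GM-noTC (log2 fold change 1.69, adjusted p = 1.6e-05 from edgeR). Gas6, which bridges dying cells to the TAM receptors, fell from 35.6 and 33.3 CPM to 21.9 and 21.4 CPM (log2 fold change -0.67, adjusted p = 1.2e-05 from edgeR). Gas6 was also lower on noTC in M-CSF cells, at 610.4 ± 5.83 CPM (SD, n = 2) in M-TC and 328 ± 8.72 CPM (SD, n = 2) in M-noTC (adjusted p = 8.3e-10 from edgeR). The largest gain in CPM was that of Spp1, which encodes the matrix protein and cytokine osteopontin, from 11891 and 12985 CPM to 17536 and 18228 CPM (log2 fold change 0.52, adjusted p = 2.4e-06 from edgeR).

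**Figure D4:**
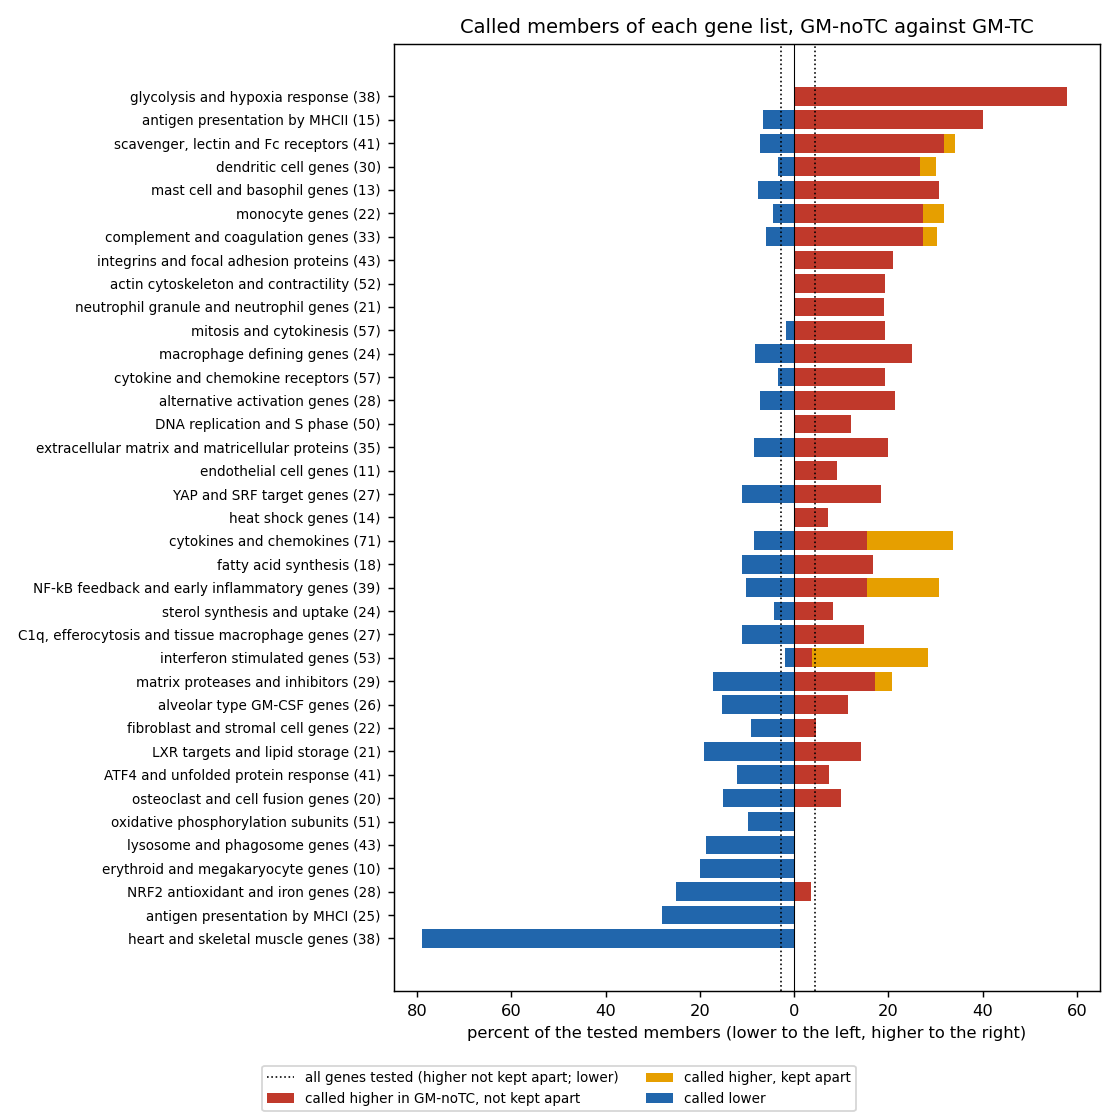
Bars give the percent of the tested members of each gene list with 10 or more tested members called lower (to the left) or higher (to the right) in GM-noTC, with the part kept apart in orange and the number of tested members in brackets, and dotted lines mark 4.35% higher and 2.85% lower over all genes. Glycolysis and the hypoxia response has the longest bar to the right, with 22 of 38, and heart and skeletal muscle the longest to the left, with 30 of 38.

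Genes of mitochondria and lysosomes were lower where they were called, by small amounts. The genes encoded by the mitochondrial genome held 7.89% and 8.35% of the counts in GM-TC and 6.95% and 7.09% in GM-noTC. mt-Atp6, a subunit of ATP synthase, had 5577 and 6359.6 CPM in GM-TC and 4607 and 4690.4 CPM in GM-noTC (log2 fold change -0.36, adjusted p = 0.00056 from edgeR). mt-Co2, a subunit of cytochrome oxidase, fell from 8599 and 9515 CPM to 7343 and 7477 CPM (log2 fold change -0.29, adjusted p = 0.0021 from edgeR). Both passed in the 13 alternative fits. Among 51 oxidative phosphorylation subunits, 0 were higher and 5 were lower, and all 51 fitted values were below 0, with a median of -0.14. After the length correction the median was -0.08 and 3 were lower. Without GM-TC replicate 1, 25 were lower, without GM-noTC replicate 2 or GM-TC replicate 2, 1 was lower, and without GM-noTC replicate 1 the count was 0 by edgeR.

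Of 43 lysosome and phagosome genes 0 were higher and 8 were lower, with a median of -0.09. Ctss, the protease cathepsin S of the class II pathway, fell from 5617 and 6206 CPM to 5023 and 5084 CPM (log2 fold change -0.23, adjusted p = 0.0029 from edgeR). Atp6v0d2, a subunit of the proton pump, had 1347 and 1365 CPM and 1168 and 1173 CPM (log2 fold change -0.21, adjusted p = 0.0061 from edgeR). In M-CSF cells Atp6v0d2 was higher on noTC by 0.69 on the log2 scale (edgeR, adjusted p = 3.8e-09), and the difference between growth factors was called (adjusted p = 2.1e-08 from edgeR). The call of Atp6v0d2 between GM-noTC and GM-TC was lost without either GM-noTC library. The lysosome count was 1 without either GM-noTC library, 2 without GM-TC replicate 2 and 12 without GM-TC replicate 1. Of 28 NRF2 and iron genes 1 was higher and 7 were lower. Sqstm1, the autophagy receptor p62, fell from 363 and 381 CPM to 296 and 294 CPM (log2 fold change -0.34, adjusted p = 7.8e-05 from edgeR), while Hmox1, heme oxygenase, rose from 253 and 278 CPM to 326 and 332 CPM (log2 fold change 0.31, adjusted p = 0.0026 from edgeR). Without either GM-noTC library 3 NRF2 and iron genes were lower.

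Lipid and stress programs had called members in both directions, except for heat shock genes. Sterol synthesis had 2 of 24 genes higher and 1 lower, fatty acid synthesis 3 of 18 and 2, LXR targets 3 of 21 and 4, ATF4 and unfolded protein response genes 3 of 41 and 5, and heat shock genes 1 of 14 and 0. Over all genes tested 4.35% were higher and 2.85% were lower. The sterol and heat shock counts rest on at most 2 genes per direction, so they are read neither as a change of these lists nor as its absence. Lpl, the lipase that frees fatty acids from lipoproteins, rose from 4336 and 4349 CPM to 5107 and 4972 CPM (log2 fold change 0.21, adjusted p = 0.0017 from edgeR), and its call was lost without GM-noTC replicate 1. Abcg1, a cholesterol exporter, fell from 657 and 643 CPM to 558 and 561 CPM (log2 fold change -0.21, adjusted p = 0.015 from edgeR), and its call was lost without either GM-noTC library. Without GM-noTC replicate 1 the LXR and sterol lists had 0 called members, and without GM-TC replicate 1 the sterol list had 5 higher and 4 lower members and the fatty acid list 8 and 2.

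Called cell cycle genes were nearly all higher, by small amounts. Of 57 mitosis genes 11 were higher and 1 was lower, with a median of 0.20 and 52 fitted values above 0, and of 50 S phase genes 6 were higher and 0 lower, with a median of 0.16 and 44 above 0. Mcm2, a subunit of the replicative helicase, rose from 23.9 and 24.2 CPM to 30.3 and 31.4 CPM (log2 fold change 0.36, adjusted p = 0.0048 from edgeR), and Foxm1, a transcription factor of mitosis, from 11.8 and 11.5 CPM to 15.7 and 15.97 CPM (log2 fold change 0.44, adjusted p = 0.0070 from edgeR). Both calls were lost without GM-noTC replicate 2. Without GM-noTC replicate 1, 2 mitosis and 2 S phase genes were higher, without GM-noTC replicate 2, 3 and 2, without GM-TC replicate 2, 6 and 4, and without GM-TC replicate 1, 17 and 6. In M-CSF cells 54 of the mitosis and 47 of the S phase genes were higher on noTC, where 16.1% of all genes were. By the test of the difference the rise was larger in M-CSF cells for 26 and 40 of them. The effect was lower in GM-CSF cells for 6.4% of all genes.

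The remaining genes among the 12 with the largest increase were at low levels. Rgs16, a regulator of G protein signals, had 0.0505 and 0.322 CPM in GM-TC and 1.06 and 1.22 CPM in GM-noTC (log2 fold change 2.48, adjusted p = 0.0013 from edgeR), and Stc2, a secreted glycoprotein, 0.151 and 0.282 CPM and 1.06 and 1.44 CPM (log2 fold change 2.47, adjusted p = 0.010 from edgeR). Npas4, a transcription factor of activity-dependent genes, had 0.404 and 0.644 CPM and 1.92 and 2.03 CPM (log2 fold change 1.88, adjusted p = 0.025 from edgeR), and Csta2, of the stefin protease inhibitors, 0.0505 and 0.564 CPM and 1.26 and 1.37 CPM (log2 fold change 1.98, adjusted p = 0.048 from edgeR). In each of the 4 both GM-noTC libraries were above both GM-TC libraries. The call of Stc2 was lost without GM-noTC replicate 2, that of Npas4 without each of the 4 libraries, and that of Csta2 without either GM-noTC library or GM-TC replicate 1. Gm14434 and Gm14419 are predicted gene models of a family of similar copies, among which reads could be split, so their increases of 3.498 and 2.67 in log2 units (edgeR, adjusted p = 0.0086 and 0.0017) are uncertain. Gm14434 was not called without GM-noTC replicate 2.

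Of the heart and skeletal muscle genes 30 of 38 tested were lower in GM-noTC and 0 higher. The summed level of the list of 51 genes was 87.1 and 55.9 CPM in GM-TC against 11.6 and 11.6 CPM in GM-noTC, and 26 of the 51 genes had no count in either GM-noTC library. Myh6, the cardiac myosin heavy chain, had 14.8 and 7.49 CPM in GM-TC and 0 in GM-noTC, at least 95.8-fold lower against a floor of 3 counts per library. The myoglobin gene Mb had 6.87 and 4.95 CPM in GM-TC and 0 in GM-noTC, at least 50.7-fold lower on the same floor. M-TC libraries had a summed level of 117 and 71.4 CPM and M-noTC libraries 11.3 and 11.8 CPM. In the 8 LPS libraries, on both dishes, the sum lay between 43.4 and 79.4 CPM, most of it Fabp3, a fatty acid binding protein gene at a mean of 70.5 CPM in GM-TC-LPS and 57.0 CPM in GM-noTC-LPS against 6.47 CPM in GM-TC and 4.37 CPM in GM-noTC. Of the lower members 19 were under 10% of their GM-TC level in each of the 6 groups other than GM-TC and M-TC. Outside the list, Hspb7, a small heat shock protein gene of muscle, had 2.32 and 2.497 CPM in GM-TC and 0.163 and 0.148 CPM in GM-noTC and showed the same pattern over the groups, as did Ankrd1 and Plin4. Plin4 and Fabp3 were named after their values were seen. Whether these reads had a part in other differences was not tested.

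Among other decreases, Orm1, an acute phase glycoprotein gene, fell from 2.73 and 2.497 CPM to 0.571 and 0.813 CPM (log2 fold change -1.896, adjusted p = 0.0020 from edgeR). Adgre4, a receptor related to F4/80, had 4.54 and 3.38 CPM and 1.51 and 1.70 CPM (log2 fold change -1.28, adjusted p = 0.0035 from edgeR), and Efnb2, the membrane ligand ephrin B2, 3.13 and 3.54 CPM and 1.06 and 1.66 CPM (log2 fold change -1.28, adjusted p = 0.0061 from edgeR). In these 3 genes both GM-noTC libraries were below both GM-TC libraries, and the calls of Adgre4 and Efnb2 were lost without GM-noTC replicate 1. Srl, a calcium binding protein gene known from muscle, Iglon5, Lrrc14b, Sox7, a transcription factor of vessels, and AL732309.1, which shares exons with Ndor1, had log2 fold changes of -1.48, -2.101, -1.36, -1.25 and -2.02, all from levels under 5 CPM. The calls of Iglon5, Lrrc14b and Sox7 were lost without either GM-noTC library, those of Lrrc14b and Sox7 also without GM-TC replicate 2, that of Sox7 also without GM-TC replicate 1, and that of AL732309.1 without GM-noTC replicate 2 or GM-TC replicate 2. Gm20388 (ENSMUSG00000092329) had 22.8 and 24.1 CPM in GM-TC and no count in GM-noTC, and it shares exons on the same strand with Galnt2 and Usp10. Galnt2, an enzyme that starts O-glycans, had 22.8 and 21.1 CPM in GM-TC and 51.1 and 46.1 CPM in GM-noTC, so reads could be split between the 2 models and their fold changes are uncertain. The call of Gm20388 was lost without either GM-noTC library.

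Lists of other cell types were summed in the same way. Neutrophil genes summed to 781 and 794 CPM in GM-TC and 997 and 992 CPM in GM-noTC, with 4 of 21 tested genes higher and 0 lower, or 1 without GM-noTC replicate 2, and most of the sum was Mmp8, the neutrophil collagenase, at 719.8 and 720.3 CPM and 906 and 902 CPM. Mast cell and basophil genes summed to 167 and 163 CPM against 172 and 174 CPM, and 5 of 27 had no count in the 4 libraries. The 13 tested ones had 4 higher and 1 lower members, the latter Kit, the stem cell factor receptor, at 32.2 and 27.4 CPM and 17.7 and 18.8 CPM (log2 fold change -0.70, adjusted p = 0.00029 from edgeR), and 2 were higher without either GM-noTC library. Fibroblast genes summed to 250.3 and 253 CPM in GM-TC and 308 and 309 CPM in GM-noTC, with 1 of 22 higher, 2 lower and a median of -0.73. Most of that sum was Gsn, which macrophages express as well, and without GM-noTC replicate 1 the list had 0 lower members. B cell, T and NK cell, endothelial and erythroid lists together had 2 higher and 2 lower genes of 32 tested. The part of these cells in the other results was not tested.

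The same dish comparison in other cells was used to ask whether the effect was shared. Of the 544 higher genes 276 (50.7%) were also higher in M-noTC comparing with M-TC, where 16.1% of all genes were, and 46 were lower. Of the 357 lower genes 156 (43.7%) were also lower in M-noTC, where 11.1% of all genes were, and 34 were higher. These counts include the heart and skeletal muscle list, of whose 38 tested genes 30 were lower in GM-noTC and 31 in M-noTC. Under LPS, 149 (27.4%) of the 544 were higher on noTC than on TC (2.08% of all genes) and 0 were lower, and 41 (11.5%) of the 357 were lower (0.727% of all genes) and 1 was higher. The difference itself was called for fewer genes with LPS than with the growth factor. The GM-CSF effect was higher than the M-CSF effect for 603 genes (4.82%) and lower for 801 (6.4%), of which 551 and 774 were not kept apart. Those counts were 1077 and 1069 without GM-TC replicate 1, and they were 326 to 388 and 459 to 520 without any 1 of the GM-noTC, M-noTC or M-TC libraries. The effect without LPS was higher than with LPS for 74 genes (0.591%) and lower for 24 (0.192%), and 35 of the 74 were not kept apart. Without GM-TC replicate 1 the counts of 35 and 24 became 337 and 151, without GM-TC replicate 2 they became 31 and 45, and without any 1 of the GM-noTC or GM LPS libraries they became 14 to 22 and 7 to 11. Thbs1 is an example of a dish effect of opposite sign, higher in GM-noTC and lower in M-noTC, from 15.05 ± 1.17 CPM (SD, n = 2) in M-TC to 7.91 ± 0.152 CPM (SD, n = 2) in M-noTC (adjusted p of the interaction = 5.0e-09 from edgeR). In M-CSF cells 14 genes of C1q and efferocytosis were lower on noTC, and the difference was called in the higher direction for GM-CSF cells in 13 of that list.

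**Figure D5:**
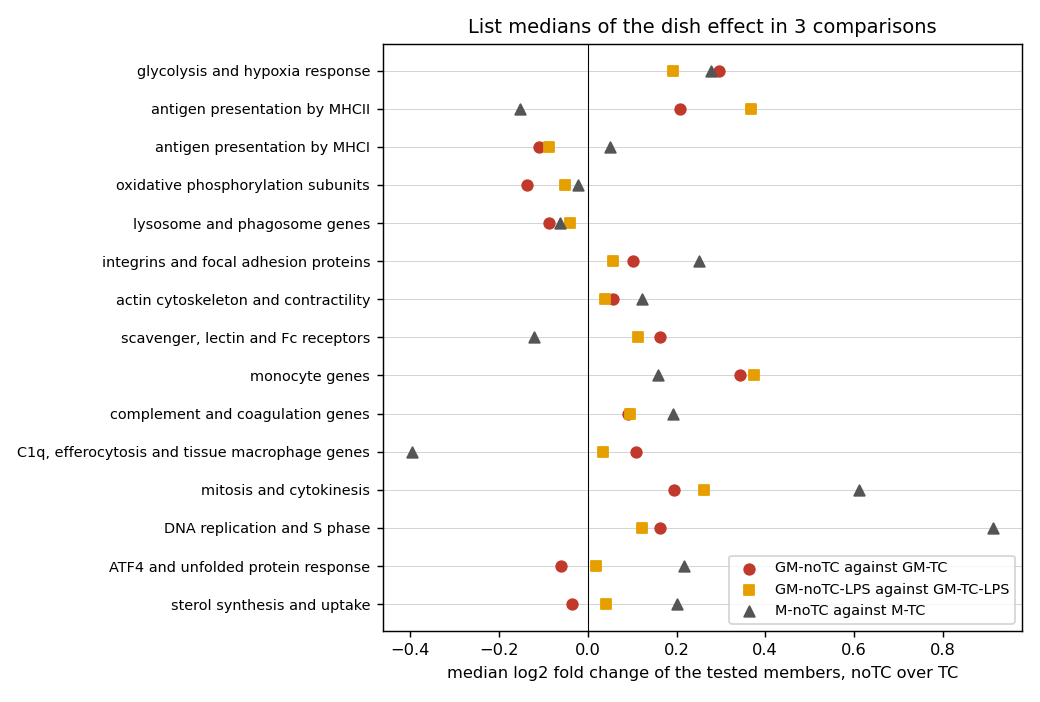
Points give the median log2 fold change of noTC over TC over the tested members of 15 gene lists in GM-CSF cells without LPS, in GM-CSF cells with LPS and in M-CSF cells without LPS. Glycolysis and the hypoxia response lies above 0 in all 3 comparisons, class II antigen presentation lies above 0 in both GM-CSF comparisons and below it in M-CSF cells, and the 2 cell cycle lists are furthest above 0 in M-CSF cells.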

How the data were processed

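Of 16 mouse BMDM RNA-seq libraries, all entered the fit, and the comparison of GM-noTC with GM-TC is reported. The authors deposited 1 table of expected counts per gene from RSEM. Per the labels, fastp 0.18.0, Bowtie2 2.2.8, HISAT2, StringTie 1.3.1, RSEM, DESeq2 and edgeR were named, and the genome build is not given in the sources used here. The deposited expected counts were not whole in 6.56% to 8.19% of values per library and were rounded. Such estimates split reads among overlapping or similar genes.

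In R 4.3.3 with edgeR 4.0.16, genes were filtered by group, scaled by TMM and tested by the quasi-likelihood method in a model of 8 groups with 2 libraries each. A call was a Benjamini-Hochberg adjusted p below 0.05 over 12514 genes. A gene was kept apart when its GM-noTC mean exceeded its GM-TC mean by less than 1% of its mean over the 8 LPS libraries, by library-size CPM. The members and the 39 gene lists were chosen with earlier results of these data known. Named were the 12 genes per direction with the largest fold change and the 6 with the largest difference in CPM (called, not kept apart, at 1 CPM or more, not overlapping, outside the muscle list), up to 4 called and 2 other members of each list, 8 genes kept apart and 3 on either side of the limit, 5 per direction for each interaction, and 7 defining genes. A few genes that this rule names are not reported here. Exact permutation of 2 against 2 libraries cannot go below p = 0.333, so the model was used. Scaling, filter, tool (DESeq2 1.42.0), libraries in the fit, block, subtraction, limit, threshold and left-out libraries were varied, and the length correction was added after seeing the data. Scripts were tested on simulated data. Promoters were matched by symbol to RefSeq (GRCm38.p6) and overlaps taken from GENCODE vM21. Plots used matplotlib 3.10.9.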

Additional observations from a re-analysis of the deposited data

Results flagged for a closer look

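The dish effect differed between GM-CSF and M-CSF cells, by the edgeR test of the difference, in 551 genes higher and 774 lower in GM-CSF cells with the genes kept apart left out. Among the genes named, the log2 difference was 14.57 for Hist2h2aa2, 7.40 for Fndc5, 6.12 for Dcn, 3.53 for Gm14434, 3.44 for Atp1b1, 2.91 for F13a1 and 2.05 for Egln3. Among the GM-noTC and GM-TC libraries, Hist2h2aa2 had 2.89 CPM in GM-noTC replicate 1 and 0 in the other 3 libraries. Its difference also draws on the M-noTC and M-TC libraries, and its size is uncertain. It was lower in GM-CSF cells, at -0.29 for Actg1, -0.35 for Spp1, -0.86 for Fn1, -0.90 for Lpl, -1.36 for Srl, -1.93 for Efnb2, -3.47 for Serpinb2, -3.66 for Sox7, -4.36 for Ccl22, -4.36 for Il1a, -5.02 for Ptx3, -6.85 for Iglon5 and -11.99 for Gm45837, which shares exons with Arap1 and Pde2a. In M-CSF cells Serpinb2 had 0.0374 ± 0.0529 CPM (SD, n = 2) in M-TC and 1.82 ± 0.668 CPM (SD, n = 2) in M-noTC. A further 48 named members of gene lists were called. After 1% of the LPS mean was subtracted from the noTC libraries, the differences of Ccl22, Il1a and Ptx3 were 4.46, 6.32 and 3.42, and those of Serpinb2 and Fn1 were 4.46 and 0.11, so the sign of these 5 depends on that step, and of them Il1a alone was called after it. The log2 fold change of Il1a between GM-noTC and GM-TC was then 0.037. Its difference thus came from the M-CSF libraries, where the subtraction can take counts to 0, and is not read as a dish effect. Sox7 and Dcn kept their sign and were not called after it (adjusted p = 0.0505 for both, from edgeR).

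The dish effect differed between GM-CSF cells without and with LPS in 35 genes higher and 24 lower without LPS, the genes kept apart left out. The log2 difference was 3.07 for Gm14419, 1.58 for Galnt2, 1.53 for Egr1, 1.43 for Ccl7, 1.33 for Lifr and 1.28 for Serpinb2. It was -0.87 for Ptger2, -1.004 for Saa3, -1.90 for Efnb2, -7.15 for Cox6a2 and -13.23 for Gm20388, and a further 6 named members of gene lists were called. After the subtraction Gm14419, Ptger2 and Gm20388 kept their sign and were not called (adjusted p = 0.053, 0.053 and 0.062 from edgeR). Gm20388 had 0 counts in both GM-noTC libraries and in GM-TC-LPS replicate 1, so the size of its value is uncertain.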

How the results depend on the processing

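The 544 higher and 357 lower genes became 204 and 92 in edgeR fits to the 4 libraries alone, 188 and 95 with DESeq2 on them, 161 and 141 at a fold above 2 with an unadjusted p below 0.05, and 85 and 56 at a fold above 2 with an adjusted p below 0.05. DESeq2 on all 16 libraries gave 489 and 228. With 1 library left out the counts ranged from 259 to 1148 and from 123 to 800, highest without GM-TC replicate 1. The replicate block gave 536 and 354, with 520 and 339 of the same genes, and the pairing check gave a correlation of 0.0176 over 12514 genes, so the numbers were not taken as pairs. The block ended the call of Csta2 and Atp5h. The genes kept apart were 43, 7 at a limit of 0.5%, 0 by construction after the subtraction of 1%, and 35 to 59 with 1 library left out. The subtraction, which takes away more than their excess, reversed Cxcl10 (-6.69), Il12b (-4.94), Il6 (-5.58), Cxcl1 (-4.73), Cxcl9 (-4.17), Nos2 (-6.74), Ifi205 (-6.50), Ptgs2 (-8.58), Cxcl3 (-0.21) and Fnbp1l (-0.025) on the log2 scale. Differences between growth factors ranged from 326 to 1077 genes higher and from 459 to 1069 lower with 1 library left out. Differences from LPS, 35 higher and 24 lower, were 95 and 87 with no filter, 66 and 59 with the length correction, 15 and 10 in the 8 GM libraries and, higher, 14 after the subtraction, and ranged from 14 to 337 and from 7 to 151 with 1 library left out. The cause of these changes was not tested. The depth of 17527802 to 24040524 counts puts 3 counts at up to 0.151 CPM, under which a difference was not detectable, and the other scalings, the filter and the length correction kept both counts of the main comparison within 1.5-fold.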

Other observations

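Of 20 osteoclast and cell fusion genes 2 were higher and 3 lower in GM-noTC. Ocstamp, a membrane protein needed for osteoclast fusion, had 2.73 and 2.34 CPM in GM-TC and 5.91 and 6.54 CPM in GM-noTC (log2 fold change 1.304, adjusted p = 0.0027 from edgeR), and its call was lost without GM-noTC replicate 2. The 2 groups did not overlap. Hspa1b, an inducible chaperone of the HSP70 family with a near-identical paralog, had 2.17 and 2.78 CPM and 5.06 and 5.10 CPM (log2 fold change 1.02, adjusted p = 5.1e-05 from edgeR). Il1rl1, the receptor for interleukin 33, had 1.82 and 2.58 CPM and 6.28 and 5.43 CPM (log2 fold change 1.39, adjusted p = 0.0052 from edgeR), and its call was lost without GM-noTC replicate 1.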
